A study of Mus musculus with 62 samples.

Results

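Cerebellum RNA of mice was compared 4 weeks (wk) after injection of cachectic melanoma cells (CAC) or of non-cachectic melanoma cells (NCAC). The comparison used every library labelled CAC or NCAC at 4 wk, 5 of each, or 10 of the 62 libraries of the series. The other libraries are CAC, NCAC and mock-injected mice at 2, 4, 6 and 8 wk, and the 5 mock libraries of 4 wk are given beside both groups as a tumour-free background. All animals were female and 2 months old when injected. The sample fields name the strain as C57BL6/J and the series design as NCI Ath/nude, so the strain is not settled here. No source used here names the melanoma lines, says whether each is 1 clone, or states whether a library is 1 mouse, so p-values measure the spread between libraries. The treatment field names cachectic cells for all 62 samples, and the extraction protocol mentions another tumour line, so groups were taken from the sample descriptions.

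Cachexia is the loss of muscle and fat that accompanies some tumours, with inflammation that reaches tissues far from the tumour. Cytokines of the interleukin-6 family signal through the receptor chain gp130 and the transcription factor STAT3, which turns on acute-phase genes, many of them secreted by liver and, in brain, by glia and vessel cells. Lrg1 encodes such a secreted glycoprotein and binds endoglin, an accessory receptor of transforming growth factor beta on endothelial cells. Glucocorticoids, the stress steroids that also rise in fasting and illness, act through a nuclear receptor that induces genes such as Fkbp5, Zbtb16 and Mt1 in most cell types.

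Values were TPM, transcript abundances corrected for length and scaled to a fixed total in every library, so depth is unknown. Fold changes are differences of log2(TPM + 1) from 1 limma fit over all 62 libraries and 14399 genes, given with their standard error (SE), and adjusted p-values are Benjamini-Hochberg values with a threshold of 0.05. The libraries looked like cerebellum: the granule cell gene Gabra6 was at 961 to 1170 TPM in CAC and 980 to 1140 in NCAC, and the Purkinje cell gene Pcp2 at 430 to 547 and 453 to 513. Mitochondrially encoded transcripts took 17.8 to 20.7% of the TPM in CAC and 19.2 to 21.1% in NCAC. The choroid plexus gene Ttr ranged from 161 to 5620 TPM in CAC and from 2720 to 5310 in NCAC. Summed haemoglobin transcripts were at 1540 to 3720 TPM in CAC and 1180 to 2010 in NCAC. CAC libraries 2 and 4 stood apart from the other CAC libraries in many of the genes below, and values without them are given beside many of these results. NCAC libraries 2, 3 and 5 stood apart in a group of neighbouring genes on chromosome 4.

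The sequences before the RefSeq start sites of 4 genes described below are shown here. Lrg1 and Socs3 are in the acute-phase list, and Phyhd1 and Tmem252 in the glucocorticoid list. Phyhd1 and Tmem252 were put there because they moved with that list in these data. They were read from RefSeq promoter windows on build GRCm38.p6, 5′ to 3′ on the gene's strand, and bases in exons that GENCODE M21 annotates for the gene were left out. Where a gene had more than 1 window, only a window with a match was kept. The Socs3 stretch lies inside the gene as GENCODE M21 annotates it (chr11:117966079-117970047), so it is not upstream of that start. Capitals mark TTCNNNGAA, the palindrome bound by STAT factors, in Lrg1 and Socs3, and ACANNNTGT, the core of the glucocorticoid receptor palindrome, in Phyhd1 and Tmem252. Of the glucocorticoid-list genes with a window, 6 of 23 held ACANNNTGT. Both genes shown are among the 6, and Fkbp5 is not.
Lrg1, chr17:56122002-56122196, minus strand: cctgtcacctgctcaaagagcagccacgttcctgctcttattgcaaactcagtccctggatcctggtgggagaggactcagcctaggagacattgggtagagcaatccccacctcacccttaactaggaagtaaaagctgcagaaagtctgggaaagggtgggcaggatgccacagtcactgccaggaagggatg
Socs3, chr11:117969452-117969616, minus strand: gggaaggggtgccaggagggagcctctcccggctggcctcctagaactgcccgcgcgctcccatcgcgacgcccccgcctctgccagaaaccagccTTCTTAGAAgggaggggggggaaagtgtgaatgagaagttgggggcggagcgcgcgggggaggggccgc
Phyhd1, chr2:30265953-30266202, plus strand: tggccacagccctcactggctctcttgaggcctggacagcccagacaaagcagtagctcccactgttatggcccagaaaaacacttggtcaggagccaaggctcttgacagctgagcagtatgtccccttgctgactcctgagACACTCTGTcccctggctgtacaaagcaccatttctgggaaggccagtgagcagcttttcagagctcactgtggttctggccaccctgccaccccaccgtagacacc
Tmem252, chr19:24673758-24674007, plus strand: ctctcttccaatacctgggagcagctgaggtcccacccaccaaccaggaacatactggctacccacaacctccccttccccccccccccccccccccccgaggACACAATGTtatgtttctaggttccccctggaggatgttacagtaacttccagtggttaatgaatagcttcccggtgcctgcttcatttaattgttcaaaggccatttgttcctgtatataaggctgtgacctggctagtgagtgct

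Over the 250 bases before the start, on both strands, TTCNNNGAA was found in 7.02% of 32851 windows and in at least 1 window of 8.13% of 27025 genes. Of 14 tested acute-phase genes 12 had a window, and Socs3 was the 1 gene of these with a match. These letters were not found in the Lrg1 window. ACANNNTGT was found in 5.84% of all windows and in 6.76% of genes. Of 27 tested genes of the glucocorticoid list 23 had a window and 6 (26.1%) had a match, namely Lcn2, Map3k6, Mt1, Phyhd1, Sgk1 and Tmem252. The same list also held more of the other motifs searched: TTCNNNGAA in 5 of 23 (21.7%), Phyhd1 among them, where it is not in capitals above, and the E-box CACGTG in 4 of 23 (17.4%, beside 6.86% of all genes). ACANNNTGT was also found in 2 of the 12 acute-phase genes (16.7%), and several members were put in the glucocorticoid list because they moved with it. A match describes letters in a window, not a bound site.

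Lrg1 was the 1 gene of 14399 that passed the adjusted test at 4 wk (0.00694%), and it was higher in CAC. Its level in CAC replicates 1 to 5 was 5.15, 10.3, 4.47, 7.28 and 2.81 TPM, in NCAC 0.945, 2.12, 1.62, 1.39 and 2.22 TPM, and in mock 2.52, 2.06, 0.991, 1.86 and 0.991 TPM. All 5 CAC libraries lay above all NCAC and mock libraries, with replicates 2 and 4 the highest. The log2 fold change against NCAC was 1.32 ± 0.254 (SE; adjusted p = 0.0436, limma). Against mock, in a comparison that shares the CAC libraries, it was 1.32 (adjusted p = 0.0435) and Lrg1 was again the 1 gene called (0.00694%), and NCAC against mock was at 0.00. An exact two-sided permutation test of the TPM over the 10 libraries gave a difference of 4.35 TPM and p = 0.00794, the smallest that 252 arrangements allow. Every gene without overlap between CAC and NCAC gives this p, and 0.736% of all genes lay wholly higher and 0.465% wholly lower in CAC. Since Lrg1 was picked from these same libraries, the permutation p is no separate evidence. Without CAC replicates 2 and 4 together, a choice made after their values were seen, the log2 fold change was 0.95 and the adjusted p 0.739. The call also rested on single libraries: the adjusted p was 0.0832, 0.92, 0.0604 and 0.195 without CAC replicates 1, 2, 3 and 4, and 0.0618, 0.151 and 0.051 without NCAC replicates 2, 3 and 5. With 1 library left out the log2 fold change lay between 1.13 and 1.52. Without NCAC replicates 2, 3 and 5 together it was 1.60 (adjusted p = 0.09, limma). The adjusted p (limma) was 0.00458, 0.0478 and 0.0286 without CAC replicate 5, NCAC replicate 1 and NCAC replicate 4, and 0.0466 under quantile normalization. It was 0.053 with median-of-ratios scaling, 0.0794 with sample weights, 0.377 when the 3 groups of 4 wk were fitted alone and 0.636 when CAC and NCAC were, and Lrg1 was not tested with a mean of at least 5 TPM.

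**Figure D1:**
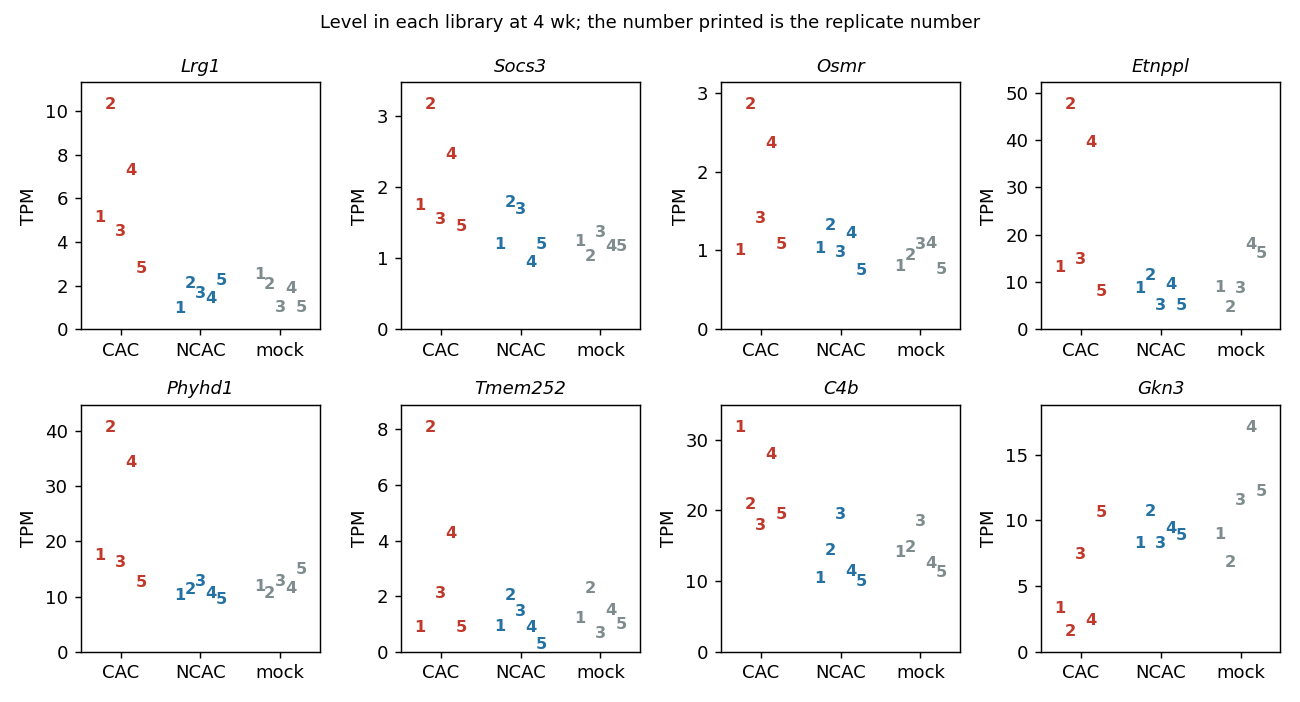
TPM of 8 genes (y axis, linear from 0) in each CAC, NCAC and mock library of 4 wk, each point drawn as its replicate number. In Lrg1 all 5 CAC libraries lie above the NCAC libraries, while in Etnppl, Phyhd1 and Tmem252 CAC replicates 2 and 4 are high and the other CAC libraries lie close to NCAC or within its range.

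Lrg1 means were higher in CAC than in NCAC at all 4 times. In CAC it was at 3.12 ± 2 TPM (SD, n = 5) at 2 wk, 6.01 ± 2.9 (n = 5) at 4 wk, 12.4 ± 7.69 (n = 5) at 6 wk and 16.8 ± 5.27 (n = 7) at 8 wk. At 2 wk 1 CAC library was at 6.64 TPM, the highest of that group. In NCAC its mean stayed between 1.52 TPM at 2 wk and 2.38 TPM at 8 wk. Against NCAC the log2 fold change was 0.62 at 2 wk (adjusted p = 0.649), 2.05 at 6 wk (adjusted p = 1.14e-06) and 2.34 at 8 wk (adjusted p = 1.34e-09, limma). At 2, 6 and 8 wk 0, 9.45% and 11.8% of all genes passed this test, and at 2 wk 6.85% were at an unadjusted p under 0.05. The change of this difference from 4 to 8 wk was 1.01 ± 0.346 (SE) and did not pass the test over all genes (adjusted p = 0.567), nor did the change from 2 to 4 wk of 0.71 ± 0.359 (adjusted p = 0.752). At an unadjusted p under 0.05 these changes were found in 6.52% and 6.62% of all genes.

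**Figure D2:**
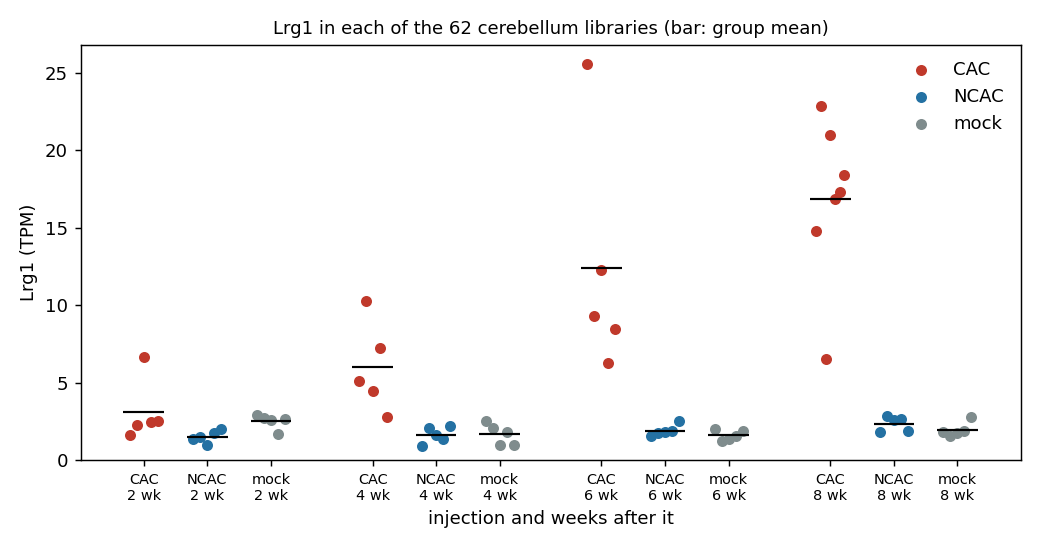
Lrg1 TPM (y axis, linear from 0) in each of the 62 libraries by injection and week, with a bar at each group mean. The CAC mean goes from 3.12 TPM at 2 wk to 16.8 TPM at 8 wk, while NCAC group means lie between 1.52 and 2.38 TPM.

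Among genes of the pathway that Lrg1 acts on, Lrg1 was the 1 call. Of 24 genes of transforming growth factor beta signalling, Lrg1 included, 23 were tested, with a median log2 fold change of -0.03 beside 0.018 over all genes tested. Eng, which encodes endoglin, was at 11.3, 15, 14.2, 19.8 and 16.4 TPM in CAC and at 19.6, 20.6, 17.3, 20.2 and 19.6 TPM in NCAC. The groups overlapped, with CAC replicate 4 inside the NCAC range, and the log2 fold change was -0.34 ± 0.106 (unadjusted p = 0.00204, adjusted p = 0.358, limma). The inhibitory Smad genes Smad7 and Smad6 had log2 fold changes of -0.14 (adjusted p = 0.439) and -0.26 (adjusted p = 0.523). In Smad7 every CAC library lay below every NCAC library, as in 0.465% of all genes. Smad9, which carries signals of bone morphogenetic proteins, had 0.15 (adjusted p = 0.516, limma). Without CAC replicates 2 and 4 Smad9 was at 0.01, while Eng, Smad7 and Smad6 were at -0.46, -0.12 and -0.38. The other 18 tested members, among them the ligands Tgfb1 to Tgfb3, the receptors and the target genes Id1 to Id3, had an unadjusted p of 0.05 or more.

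Genes of interleukin-6 family signalling included both a receptor and a feedback inhibitor that were higher in CAC without passing the adjusted test. Of 20 such genes 17 were tested, with a median log2 fold change of 0.027 and 13 above 0 (76.5%, beside 59% of all genes). At an unadjusted p under 0.05, 3 were higher and 1 lower, where 6.54% and 2.92% of all genes were. Il6, Lif and Osm, which encode ligands, were not tested because their mean lay under 1 TPM.

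Socs3, the feedback inhibitor that STAT3 induces, was at 1.74, 3.16, 1.55, 2.46 and 1.44 TPM in CAC and at 1.2, 1.79, 1.68, 0.939 and 1.2 TPM in NCAC (log2 fold change 0.36 ± 0.128, adjusted p = 0.398). Osmr, the receptor chain for oncostatin M, was at 0.998, 2.85, 1.4, 2.36 and 1.08 TPM in CAC and at 1.02, 1.32, 0.975, 1.21 and 0.751 TPM in NCAC (0.37 ± 0.118, adjusted p = 0.369). In both genes CAC replicates 2 and 4 were the highest and the other CAC libraries lay within or close to the NCAC range, and without these 2 libraries the log2 fold changes were 0.14 and 0.08. Stat3 itself had a log2 fold change of 0.10 (adjusted p = 0.548), which was -0.03 without them. The ligand gene Clcf1 was at 0.41 (adjusted p = 0.439), and 0.44 without them. Il11ra1, the member that was lower, is described with its neighbours on chromosome 4.

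Of 27 acute-phase and reactive glia genes 14 were tested, and the median log2 fold change was 0.325 with 13 above 0. At an unadjusted p under 0.05, 8 were higher and 1, Vim, was lower, where 6.54% and 2.92% of all genes were, and 59% of all genes lay above 0. Besides Lrg1, Osmr and Socs3 the higher ones were Cebpd (0.73), a transcription factor of the acute phase, Ch25h (0.58), which makes an oxysterol, the interleukin-1 receptor gene Il1r1 (0.40), the copper carrier Cp (0.29) and the protease inhibitor A2m (0.21). Their adjusted p-values lay between 0.405 and 0.526, and without CAC replicates 2 and 4 they were at 0.05, 0.23, 0.18, 0.04 and 0.13. Lcn2, a siderophore-binding protein that is among the largest calls at 8 wk, was at 0.803, 2.15, 0.743, 1.36 and 0.207 TPM in CAC and at 0.383, 1.27, 0.399, 0.5 and 0.215 TPM in NCAC (0.36 ± 0.242, adjusted p = 0.646). CAC replicates 2 and 4 were the 2 highest of the 10 libraries in 11 of the 14 genes (9.5% of all genes), and without them the list median was 0.059. The list was drawn up with earlier results of these libraries known, and its filter on mean TPM favours members that are high in CAC at other weeks.

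Genes of the glucocorticoid list showed the same split between libraries. Of 28 members 27 were tested, 26 lay above 0, and the median log2 fold change was 0.351, against 1.327 at 8 wk, where 21 were called higher. Over all genes 59% lay above 0 at 4 wk and 7.76% were called higher at 8 wk. No member passed the adjusted test at 4 wk, and 5 were higher at an unadjusted p under 0.05, where 6.54% of all genes were. Several members, among them Etnppl, Phyhd1, Tmem252, Map3k6 and Sult1a1, were put in the list because they moved with it in these data, so the count is no independent evidence of its direction. The mean of log2(TPM + 1) over the list was 4.276, 5.599, 4.590, 5.281 and 3.945 in CAC, 4.306, 4.680, 4.023, 4.678 and 3.818 in NCAC, and 3.896 to 4.938 in mock. CAC replicates 2 and 4 lay above all NCAC and mock libraries, and CAC replicates 1, 3 and 5 lay within the range of mock. CAC replicates 2 and 4 were the 2 highest of 10 in 21 of the 27 genes (9.5% of all genes), and without them the median was -0.072.

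Etnppl, a lyase of phosphoethanolamine that astrocytes express, was at 13.1, 47.5, 14.8, 39.5 and 7.9 TPM in CAC and at 8.66, 11.3, 5.08, 9.52 and 5.03 TPM in NCAC. Its log2 fold change was 1.28 ± 0.446 (adjusted p = 0.395, limma), and 0.55 without CAC replicates 2 and 4. Phyhd1, a dioxygenase, was at 17.5, 40.7, 16.1, 34.3 and 12.5 TPM in CAC and at 10.1, 11.3, 12.7, 10.6 and 9.5 TPM in NCAC. In Phyhd1 4 CAC libraries lay above the highest NCAC library and CAC replicate 5 lay just inside its range (0.96 ± 0.277, adjusted p = 0.348). The membrane protein gene Tmem252 was at 0.855, 8.08, 2.1, 4.26 and 0.882 TPM in CAC and at 0.889, 2.02, 1.43, 0.875 and 0.267 TPM in NCAC (0.79 ± 0.278, adjusted p = 0.395). Phyhd1 was at 0.46 and Tmem252 at 0.14 without CAC replicates 2 and 4.

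Fkbp5, the co-chaperone by which the receptor limits its own action, also varied within NCAC. It was at 6.2, 30.5, 8.01, 16.8 and 3.8 TPM in CAC and at 6.95, 11.5, 3.98, 10.6 and 3.64 TPM in NCAC (0.54 ± 0.365, adjusted p = 0.651). In NCAC replicates 2 and 4 were the highest as well, and in mock the range was 3.96 to 13.4 TPM. The lipid droplet gene Plin4 (0.84 ± 0.586, adjusted p = 0.66), the transcription factor gene Zbtb16 (0.50 ± 0.551, adjusted p = 0.79) and the metallothionein gene Mt1 (0.49 ± 0.22, adjusted p = 0.486) overlapped between the groups. Without CAC replicates 2 and 4 the log2 fold changes of Fkbp5, Plin4, Zbtb16 and Mt1 were -0.18, -0.17, -0.18 and 0.10.

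The genes called in CAC against NCAC at 8 wk were read at 4 wk, in other libraries. At 8 wk 1117 genes were higher (7.76%) and 578 lower (4.01%), and at 4 wk 1020 of the 1117 (91.3%) lay above 0 and 506 of the 578 (87.5%) lay below 0, where 59% and 41% of all genes did. At an unadjusted p under 0.05, 277 of the 1117 (24.8%) were higher at 4 wk and 109 of the 578 (18.9%) were lower. The medians of the 1117 genes were 0.090 at 4 wk and 0.246 at 8 wk, and those of the 578 genes -0.081 and -0.257. These genes were chosen by their values at 8 wk, which enlarges the 8 wk medians. The smaller medians at 4 wk are therefore no evidence of growth from 4 to 8 wk. No gene had a change of the difference from 4 to 8 wk that passed the adjusted test in limma, and 939 were at an unadjusted p under 0.05. The acute-phase gene Lcn2 was among these (unadjusted p = 3.62e-05, limma). Lcn2 is also among the largest calls at 8 wk, and this change contains the 8 wk value, so its p is biased low.

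This agreement in direction rested in large part on CAC replicates 2 and 4. Averaged over the 1117 genes, the deviation of log2(TPM + 1) from the mock mean of 4 wk was 0.016, 0.331, 0.051, 0.183 and -0.042 in CAC, -0.026, 0.053, -0.038, 0.043 and -0.096 in NCAC, and -0.061 to 0.070 in mock. Over the 578 genes it was -0.053, -0.268, -0.019, -0.157 and 0.060 in CAC, 0.001, -0.026, 0.069, -0.017 and 0.064 in NCAC, and -0.059 to 0.061 in mock. CAC replicates 2 and 4 lay outside the range of mock in both sets, and CAC replicates 1, 3 and 5 lay inside it. In all 1526 of 1695 called genes (90%) had the same sign at 4 wk, 1377 of 1779 (77.4%) without CAC replicate 2, 1438 of 1726 (83.3%) without CAC replicate 4, and 1058 of 1839 (57.5%) without both. CAC replicates 2 and 4 were left out because of this readout, so the value without both is a description and no test. The share also moved with NCAC libraries. It was 85.9% and 83.4% without NCAC replicates 3 and 5, and 89.9%, 93.3% and 92.3% without NCAC replicates 1, 2 and 4. Without NCAC replicates 2, 3 and 5 together it was 78.7%.

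**Figure D3:**
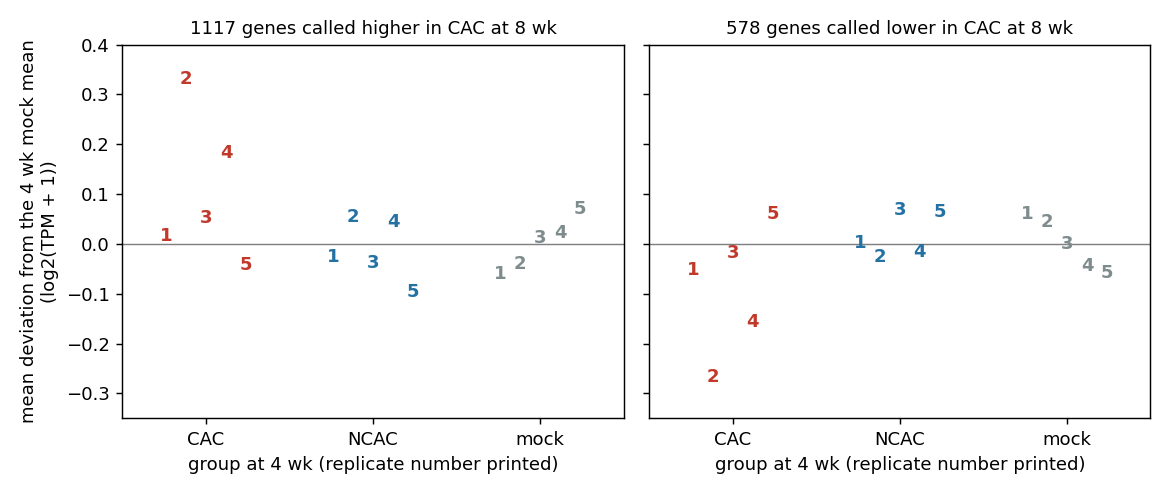
Mean deviation from the 4 wk mock mean, in log2(TPM + 1), over the 1117 genes called higher (left) and the 578 called lower (right) in CAC against NCAC at 8 wk, for each library of 4 wk drawn as its replicate number. CAC replicates 2 and 4 are at 0.331 and 0.183 on the left and -0.268 and -0.157 on the right, and the other 13 libraries lie between -0.096 and 0.070.

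Of the 10 largest calls at 8 wk all 10 lay above 0 at 4 wk, with log2 fold changes from 0.36 (Lcn2) to 1.32 (Lrg1). Map3k6, a stress-activated kinase, was at 0.75 ± 0.391 and the sulfotransferase gene Sult1a1 at 0.73 ± 0.389 (adjusted p = 0.548 and 0.555), and without CAC replicates 2 and 4 they were at -0.11 and 0.05. In each of these 10 genes CAC replicates 2 and 4 were the 2 highest of the 10 libraries, as in 9.5% of all genes. The 10 largest falls at 8 wk all lay below 0 at 4 wk, from -0.09 (Opalin) to -0.96 (Gkn3). CAC replicates 2 and 4 were the 2 lowest in 7 of them, beside 5.26% of all genes.

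Among these, Fabp7, which binds fatty acids in Bergmann glia and other astrocytes, was at 82.9, 22.5, 90.2, 30.5 and 131 TPM in CAC and at 100, 65.8, 176, 68.9 and 136 TPM in NCAC (-0.79 ± 0.372, adjusted p = 0.51). The matrix gene Tnc was at 8.67, 3.52, 10, 4.69 and 14.3 TPM in CAC and at 11.4, 13.4, 13.5, 12.8 and 16.8 TPM in NCAC (-0.78 ± 0.307, adjusted p = 0.428). In both CAC replicates 2 and 4 lay below every NCAC library, and of the other CAC libraries 1 of 3 lay within the NCAC range in Tnc and all 3 in Fabp7. Without these 2 libraries the log2 fold changes were -0.03 and -0.30.

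The others were the neurotrophin gene Ntf3 (-0.13), the serpin gene Serpinb1a (-0.28), the collagen gene Col2a1 (-0.32), the ligand gene Cd70 (-0.40), Sost (-0.52), which encodes sclerostin, and the protease gene Klk6 (-0.57). Without CAC replicates 2 and 4 these 6 genes were at 0.00, 0.03, 0.14, -0.01, -0.13 and -0.50. Opalin, of oligodendrocytes, had a change of the difference from 4 to 8 wk at an unadjusted p of 0.00377, and Ntf3 at 0.000377. Neither passed the adjusted test in limma. Both genes were picked by their 8 wk values, which this change contains, so these unadjusted p-values are biased low.

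**Figure D4:**
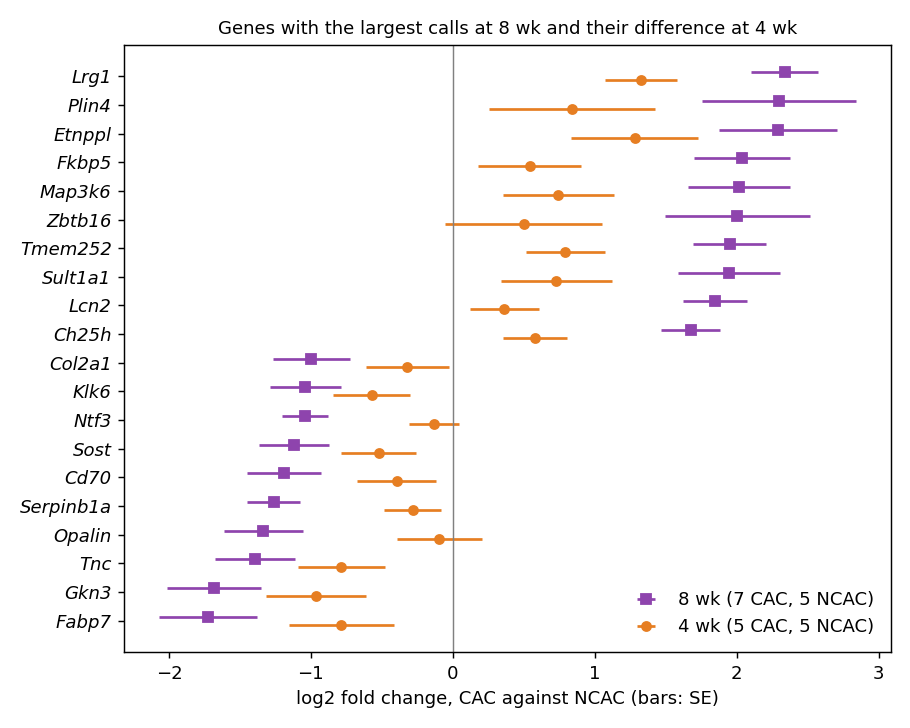
Log2 fold change of CAC against NCAC (x axis, on the log2(TPM + 1) scale, bars are SE) at 8 wk (squares) and at 4 wk (circles) for the 10 highest and the 10 lowest called genes of 8 wk. All 20 lie on the same side of 0 at both times, from 1.32 for Lrg1 to -0.96 for Gkn3 at 4 wk.

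Other genes that ranked high at 4 wk differed across more of the CAC libraries. C4b, complement component 4, was at 31.8, 20.8, 17.9, 27.9 and 19.4 TPM in CAC and at 10.4, 14.4, 19.5, 11.4 and 9.88 TPM in NCAC (0.81 ± 0.271, adjusted p = 0.372). Only NCAC replicate 3 lay within the CAC range. Reads shared between C4b and its near-identical neighbour C4a make this value uncertain. Apoc1, an apolipoprotein, was at 20.5, 19.2, 15.7, 17.3 and 11.9 TPM in CAC and at 9.55, 13.7, 10.7, 10.5 and 6.43 TPM in NCAC (0.70 ± 0.205, adjusted p = 0.349).

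In 3 higher genes the groups did not overlap. Ltbp2, a matrix protein that binds microfibrils, was at 15.7, 22.1, 16.4, 14.9 and 14.4 TPM in CAC and at 9.88, 11.5, 13.6, 9.5 and 11.5 TPM in NCAC (0.53 ± 0.16, adjusted p = 0.357). Cplx3, a complexin of synapses, was at 2.91, 4.05, 3.61, 3.01 and 2.65 TPM in CAC and at 2.58, 1.82, 1.95, 1.36 and 1.66 TPM in NCAC (0.57 ± 0.15, adjusted p = 0.303). The proapoptotic gene Bbc3 was at 15 to 16.7 TPM in CAC and 10.1 to 14.6 TPM in NCAC (0.32 ± 0.117, adjusted p = 0.405). In all, 106 of the tested genes (0.736%) had every CAC library above every NCAC library.

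Rprml (0.76), Vipr1 (0.69), a receptor for vasoactive intestinal peptide, the ubiquitin ligase adaptor gene Fbxo17 (0.66) and the imprinting factor gene Zfp57 (0.55) overlapped between the groups, with adjusted p-values from 0.372 to 0.405. Leaving out CAC replicates 2 and 4 left these genes close to their full values: C4b at 0.76, Rprml at 0.84, Fbxo17 at 0.84, Zfp57 at 0.62, Apoc1 at 0.61, Vipr1 at 0.52, Cplx3 at 0.51 and Ltbp2 at 0.45. At 8 wk C4b (1.05), Apoc1 (0.91) and Cplx3 (0.42) were called higher, and Rprml, Vipr1, Fbxo17, Zfp57, Ltbp2 and Bbc3 were not (adjusted p between 0.175 and 0.803).

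At the low end of the ranking, Otof, which encodes otoferlin, had the lowest log2 fold change of the ranked genes, -1.42 ± 0.461 (adjusted p = 0.37). It was at 0.498, 4.69, 0.518, 3.52 and 0.595 TPM in CAC and at 5.66, 6.2, 5.83, 5.43 and 5.17 TPM in NCAC, so that CAC replicates 1, 3 and 5 were between 0.498 and 0.595 TPM, and CAC replicates 2 and 4 lay just below the NCAC range. Levels under 1 TPM also occurred in 6 libraries of other groups and weeks, mock among them, and the other 53 of the 62 libraries lay from 1.18 to 9.73 TPM. At 8 wk its log2 fold change was 0.99 (adjusted p = 0.123).

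Gkn3, a gastrokine that brain endothelium expresses, was at 3.32, 1.53, 7.4, 2.41 and 10.6 TPM in CAC and at 8.21, 10.7, 8.23, 9.41 and 8.87 TPM in NCAC (-0.96 ± 0.354, adjusted p = 0.405). CAC replicates 1 to 4 lay below every NCAC library and CAC replicate 5 inside the range, and without replicates 2 and 4 the value was -0.42. Icam2, an endothelial adhesion molecule, was at 1.49, 2.27, 2.56, 2.36 and 2.9 TPM in CAC and at 3.64, 3.59, 3.8, 3.98 and 3.1 TPM in NCAC (-0.49 ± 0.137, adjusted p = 0.347). Vim, the intermediate filament of vessel cells and reactive glia, was at 153, 129, 88.5, 168 and 163 TPM in CAC and at 175, 186, 211, 224 and 176 TPM in NCAC (-0.50 ± 0.183, adjusted p = 0.405). In Icam2 and Vim every CAC library lay below every NCAC library, as in 67 of all genes (0.465%), and leaving out CAC replicates 2 and 4 gave -0.50 and -0.57. At 8 wk Gkn3 was called lower (-1.68, adjusted p = 0.000459), whereas Icam2 (0.11) and Vim (-0.01) were not called. The change from 4 to 8 wk had an unadjusted p of 0.00229 for Icam2 and 0.0544 for Vim, and neither passed the adjusted test in limma. Both genes were ranked by their 4 wk values, which this change contains, so these unadjusted p-values are biased low.

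Of 22 endothelial genes 11 lay above and 11 below 0, with 3 higher and 5 lower at an unadjusted p under 0.05, beside 6.54% and 2.92% of all genes. Vwf, von Willebrand factor, was at 5.94, 10.9, 5.13, 9.76 and 4.96 TPM in CAC and at 5.12, 5.49, 3.84, 5.34 and 4.05 TPM in NCAC (0.48 ± 0.159, adjusted p = 0.372), again with replicates 2 and 4 highest, and it was 0.14 without them. The junction gene Cdh5 (-0.18) and the receptor genes Tie1 (-0.22) and Kdr (-0.35) were among the 5 lower ones, with adjusted p-values from 0.372 to 0.435. In Cdh5 every CAC library lay below every NCAC library, as in 0.465% of all genes. Without CAC replicates 2 and 4 Cdh5, Tie1 and Kdr were at -0.21, -0.16 and -0.31. Of 13 mural cell genes 12 lay below 0 (median -0.080), 2 of them at an unadjusted p under 0.05, where 41% and 2.92% of all genes were. The chemokine gene Cxcl12 was lower in every CAC library, at 17.5 to 32.7 TPM against 33.4 to 36.7 TPM (-0.46 ± 0.2, adjusted p = 0.469). Cxcl12 was at -0.31 without CAC replicates 2 and 4. In whole tissue, fewer cells of a type and less RNA per cell cannot be told apart.

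The remaining genes of lowest rank were the carbonyl reductase gene Cbr3 (-0.49), the respiratory chain gene Cox7a1 (-0.39), the channel subunit gene Kcne1l (-0.39), the metalloprotease gene Mmp28 (-0.38) and the cilium gene Tmem107 (-0.37). In Kcne1l the CAC libraries, at 15.8 to 19.1 TPM, lay below the NCAC libraries, at 21.7 to 24.9 TPM (adjusted p = 0.348). The adjusted p-values of the other 4 lay between 0.358 and 0.372. At 8 wk Cox7a1, Kcne1l and Mmp28 were called lower.

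A run of neighbouring genes on chromosome 4 held many of the smallest p-values. It was found after the values were seen, and spans chr4:41505009-43264871 (GRCm38, from the first to the last of its genes), so its counts are a description. Of 43 tested genes there, 21 (48.8%) were at an unadjusted p under 0.05, 15 higher and 6 lower in CAC, where 9.47% of all genes were. It holds 0.299% of the tested genes and 9 of the 25 with the smallest p. In CAC against NCAC at 2, 6 and 8 wk 1, 4 and 5 of the 43 genes were at an unadjusted p under 0.05, where 6.85%, 25.9% and 25.7% of all genes were.

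In Il11ra1, Galt and Vcp NCAC replicates 2, 3 and 5 stood above the other NCAC libraries. Il11ra1 (chr4:41699989-41769474, plus strand), a receptor chain for interleukin-11, was at 11.7, 24.5, 24.1, 12.1 and 23 TPM in NCAC and at 12.1 to 13.1 TPM in CAC (-0.49 ± 0.145, adjusted p = 0.349). Galt, which encodes a galactose-processing transferase, was at 29.2, 40, 50.2, 25.6 and 50.5 TPM in NCAC and at 23.8 to 30.7 TPM in CAC (-0.44 ± 0.119, adjusted p = 0.303). Vcp, an ATPase that unfolds ubiquitylated proteins, was at 141, 177, 171, 134 and 171 TPM in NCAC and at 127 to 137 TPM in CAC (-0.25 ± 0.0592, adjusted p = 0.16).

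Of the genes that were higher in CAC, Gm13305 was at 4.01, 2.66, 1.82, 3.35 and 1.72 TPM in NCAC and at 4.63 to 8.45 TPM in CAC (0.94 ± 0.199, adjusted p = 0.13). Here all 5 NCAC libraries lay below every CAC library. Mock replicate 4 of 4 wk had the pattern of NCAC replicates 2, 3 and 5, with Il11ra1 at 23.9, Galt at 44.5 and Gm13305 at 2.02 TPM. In the other 58 libraries Il11ra1 ranged from 9.14 to 16.5 TPM and Galt from 22.4 to 38 TPM. Gm13305 ranged there from 2.6 to 8.45 TPM and Vcp from 126 to 181 TPM, so these 2 genes overlapped the libraries with the pattern. NCAC replicate 1 of 6 wk had Vcp at 181 TPM with Il11ra1 at 12.3 TPM. Without NCAC replicates 2, 3 and 5 the log2 fold changes of Il11ra1, Galt and the repair gene Fancg were 0.08, 0.00 and 0.01, and that of Vcp was -0.05. Gm13305 was then at 0.57, Gm10593 went from 0.91 to 0.19 and Gm12394 from 0.74 to 0.21. Without NCAC replicate 1 or 4 limma called 10 or 9 genes, among them Vcp, Gm13305, Gm10593 and Gm12394. Several genes of this run have near-identical copies beside each other, so reads may be split between them. The cause was not tested.

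**Figure D5:**
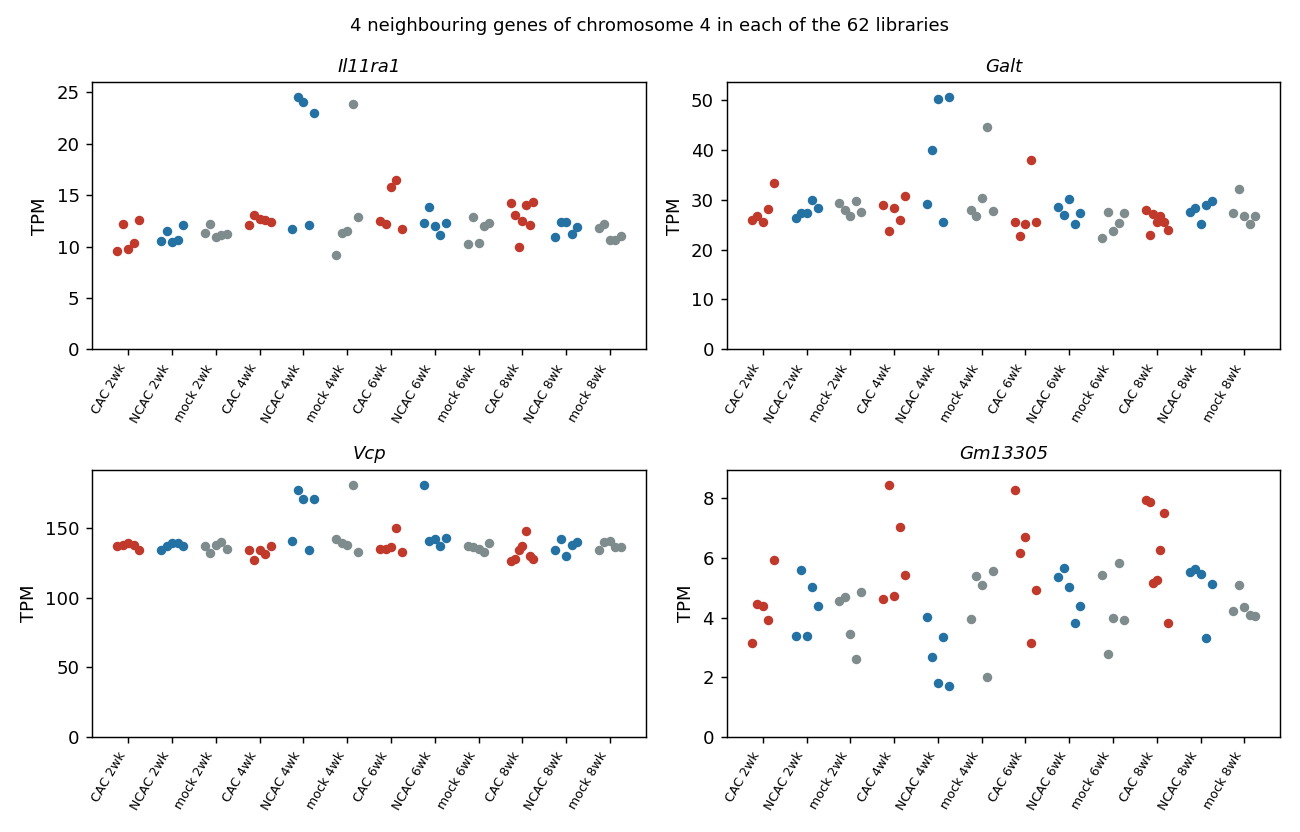
TPM (y axis, linear from 0) of Il11ra1, Galt, Vcp and Gm13305, which lie in 1 run on chromosome 4, in each of the 62 libraries by group. NCAC replicates 2, 3 and 5 and mock replicate 4 of 4 wk stand above the rest in Il11ra1, at 23 to 24.5 TPM against 9.14 to 16.5 TPM in the other 58.

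Glial and lipid genes showed values in both directions. Of 25 cholesterol synthesis genes 17 lay below 0 (median -0.085) and 4 were lower at an unadjusted p under 0.05, beside 41% and 2.92% of all genes. Hmgcs1, which acts early in sterol synthesis, was at 138, 101, 142, 113 and 159 TPM in CAC and at 151, 144, 164, 149 and 156 TPM in NCAC (-0.24 ± 0.0927, adjusted p = 0.419). Dhcr7 (-0.26), Cyp51 (-0.26) and Idi1 (-0.25), further enzymes, were lowest in the same CAC replicates 2 and 4, and without these the values of the 4 genes were -0.06, -0.05, -0.10 and -0.11. At 8 wk 12 of the 25 were called lower, beside 4.01% of all genes.

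Of 20 myelin genes 2 were higher and 2 lower at an unadjusted p under 0.05, beside 6.54% and 2.92% of all genes. Ugt8a, which makes galactosylceramide, was at 45.9, 26.1, 51.7, 37.7 and 57.8 TPM in CAC and at 53.7 to 59.6 TPM in NCAC (-0.39 ± 0.167, adjusted p = 0.459), and Mag was at -0.23 ± 0.105. Cldn11 (0.21 ± 0.0992) and Tspan2 (0.16 ± 0.067) had the opposite sign. Without CAC replicates 2 and 4 Ugt8a and Mag were at -0.11 and -0.03, and Cldn11 and Tspan2 at 0.19 and 0.20. Bcas1, of newly formed oligodendrocytes, was at -0.26 (adjusted p = 0.431), and -0.12 without CAC replicates 2 and 4.

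Of 23 astrocyte and Bergmann glia genes 17 lay above 0, with 2 higher and 3 lower at an unadjusted p under 0.05. Over all genes 59% lay above 0, 6.54% were higher and 2.92% lower. The adhesion gene Hepacam (0.20) and the glycolytic gene Aldoc (0.16) were the higher ones, and Tnc, Fabp7 and the water channel gene Aqp4 (-0.27) the lower ones. Hepacam, Aldoc and Aqp4 were at 0.10, 0.07 and -0.05 without CAC replicates 2 and 4. The matrix gene Sparc was at 905, 1240, 943, 1110 and 850 TPM in CAC and at 811 to 898 TPM in NCAC (0.26 ± 0.0929, adjusted p = 0.405), and 0.10 without CAC replicates 2 and 4. Lists of Purkinje, granule and inhibitory neuron genes held 15, 16 and 14 tested members, with medians from -0.005 to 0.025 and 0 members at an unadjusted p under 0.05.

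Of 14 core clock genes 12 lay above 0 (median 0.109) and of 11 clock-controlled genes 9 did (median 0.198), and 2 of each were higher at an unadjusted p under 0.05, beside 59% and 6.54% of all genes. Per3, a period gene, was at 32.4, 39.8, 31.7, 31.5 and 23.2 TPM in CAC and at 25.7, 25.6, 24.7, 29.2 and 19.2 TPM in NCAC (0.33 ± 0.111, adjusted p = 0.373). Bhlhe40 (0.30 ± 0.107), Bhlhe41 (0.21 ± 0.098) and Cry2 (0.21 ± 0.0728), further repressors of the clock, overlapped between the groups as well. Per3, Bhlhe40, Bhlhe41 and Cry2 were at 0.21, 0.24, 0.18 and 0.11 without CAC replicates 2 and 4. At 2 wk these 4 genes had the opposite sign, at -0.33, -0.09, -0.25 and -0.18 (adjusted p from 0.615 to 0.868, limma). The change of the Per3 difference from 2 to 4 wk was 0.66 ± 0.157 (adjusted p = 0.414, limma). Per3 was named for its 4 wk value, which this change contains, so its size is favoured by the choice. The hour at which tissue was taken is not given in the sources used here. Of 22 immediate early genes 15 lay above 0 and 3 were higher at an unadjusted p under 0.05, among them Junb at 0.56 ± 0.231 and Egr1 at 0.41 ± 0.184, both at 0.18 without CAC replicates 2 and 4. Without CAC replicates 2 and 4 the medians were -0.008, 0.070 and -0.243 for these 3 lists.

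Several lists had most members below 0, where 41% of all genes lay, among them 47 of 62 ribosomal protein genes (median -0.023). Of 20 heat shock genes 19 lay below 0 (median -0.086), and 6 were lower at an unadjusted p under 0.05, where 2.92% of all genes were. They included the chaperones Hsp90aa1 (-0.12) and Cryab (-0.26), with adjusted p-values of 0.398 and 0.457. The median of this list without CAC replicates 2 and 4 was -0.115. These were the 2 lowest libraries in 1 of 20 genes, beside 5.26% of all genes. CAC replicate 2 was the lowest in 5 of 20, beside 1542 of all 14399 genes. Of 27 interferon-stimulated genes 22 lay below 0 (median -0.188). At an unadjusted p under 0.05, 2 were lower, the GTPase genes Gbp7 (-0.35) and Igtp (-0.47), beside 2.92% of all genes. The 1 higher gene at this p was Stat2 (0.13), beside 6.54% of all genes. The list median was -0.048 in CAC against mock and 0.152 in NCAC against mock. With a mean of at least 5 TPM as the filter the median of CAC against NCAC was -0.016.

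Of 19 microglial genes 16 lay below 0 (median -0.070) and 0 reached an unadjusted p of 0.05 in limma. Of 38 nuclear genes of the respiratory chain 29 lay below 0 (median -0.031) and 6 were lower at an unadjusted p under 0.05, beside 41% and 2.92% of all genes. Ndufa1, a subunit of complex I, was at 428 to 497 TPM in CAC and 522 to 564 TPM in NCAC, without overlap (-0.21 ± 0.0524, adjusted p = 0.247), and Sdhc, of complex II, had -0.11 ± 0.0329 (adjusted p = 0.348). All 13 mitochondrially encoded genes lay below 0 (median -0.066), led at an unadjusted p under 0.05 by mt-Nd2 (-0.14) and mt-Nd4l (-0.13). Under quantile normalization the median of these 13 was -0.000. Without CAC replicates 2 and 4 the medians were -0.008 for the 38 nuclear genes and -0.035 for the 13. Ndufa1, Sdhc, mt-Nd2 and mt-Nd4l were then at -0.20, -0.08, -0.07 and -0.10.

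The share of higher genes depended on the scaling. Of 1363 genes at an unadjusted p under 0.05, 942 (69.1%) were higher in CAC, against 48.9% with median-of-ratios scaling, 45.3% under quantile normalization and 52.3% when mitochondrially encoded genes were removed. The medians of the acute-phase, glucocorticoid and heat shock lists were 0.304, 0.328 and -0.102 under quantile normalization.

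Transcripts of blood and choroid plexus were abundant and uneven between libraries. Of 9 red cell genes 8 lay above 0 (median 0.382), where 59% of all genes did, and 1 was higher at an unadjusted p under 0.05. The median lay between 0.105 (without CAC replicate 1) and 0.696 (without CAC replicate 3) when 1 library was left out, and was 0.125 without CAC replicates 2 and 4. Of 17 tested choroid plexus genes 14 lay below 0 (median -0.141), where 41% of all genes did, and the mean of log2(TPM + 1) over them was 3.433 to 4.633 in CAC and 4.318 to 4.628 in NCAC. This median changed sign with 1 library, lying between -0.268 (without CAC replicate 4) and 0.081 (without CAC replicate 1), and was -0.446 without CAC replicates 2 and 4. The part of blood and choroid plexus in other results was not tested. Of 10 melanocyte genes 2 were tested, and the other 8 were under a mean of 1 TPM. The summed TPM of the 10 was 9.71 to 11.4 in CAC, 9.95 to 12 in NCAC and 9.39 to 11.8 in mock.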

How the data were processed

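The authors deposited 1 table of TPM values per gene symbol for 62 cerebellum libraries, with genome build mm10 per the submitters' processing notes. No aligner, quantification tool or annotation is named (not given in the sources used here). Per the labels' protocols, RNA was extracted with Trizol for stranded mRNA libraries. TPM keeps no depth, so no counting interval is given. Of 47643 symbols 14399 had a mean of at least 1 TPM. Log2(TPM + 1) of all 12 groups was fitted with limma 3.58.1 in R 4.3.3 (eBayes with trend, 50 residual degrees of freedom, no covariate), tested on simulated data. The named genes were the calls, the 12 largest and 12 smallest fold changes at an unadjusted p under 0.01 without clone names, up to 4 members of each of 39 lists at an unadjusted p under 0.05, and the 10 largest and 10 smallest calls at 8 wk. Any member of the transforming growth factor beta, interleukin-6 and acute-phase lists could also be named. Vcp, the Gm genes, and the CAC and NCAC libraries left out together were chosen after seeing the data. Members and lists were chosen with earlier results of these data known. Coordinates come from GENCODE M21, and promoters from RefSeq GRCm38.p6 (Python 3.11.15). Alternatives covered pseudocount, filter, scaling, weights, block, covariate, samples and single libraries.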

Additional observations from a re-analysis of the deposited data

Results flagged for a closer look

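In 3 of 176 groups of 5 libraries checked, over 88 genes, the gap between 1 library and the nearest other relative to the group's range exceeded Dixon's critical value. Chance alone gives about 1 group in 20. Klk6, a protease of oligodendrocytes, was at 68.6 TPM in NCAC replicate 4, and the next library was at 33.7 TPM, a gap of 0.789 of the range. Ndufa1, a subunit of respiratory complex I, was at 564 TPM in NCAC replicate 2 and at 527 TPM in the next library, a gap of 0.881 of the range. The mitochondrially encoded gene mt-Nd2 was at 6650 TPM in CAC replicate 2 and at 8210 TPM in the next lowest library, a gap of 0.762 of the range.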

How the results depend on the processing

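The number of genes called at 4 wk by limma was 1 in the reported fit. It was 2 with no filter, with quantile normalization, without mitochondrially encoded genes, and without NCAC replicates 2, 3 and 5. It was 0 with a mean of at least 5 TPM (1137 genes at an unadjusted p under 0.05), median-of-ratios scaling (1343), sample weights (1310), the 2 groups alone (1041), the 3 groups of 4 wk (1276) and without CAC replicates 2 and 4 (973). Leaving out 1 library gave 0 to 10. Not every same-numbered pair deviated together, so the numbers were not taken as pairs (correlations of same-numbered deviations 0.044, 0.224, -0.051, 0.321 and 0.196, and 3 of 5 CAC libraries correlated best with their own number). A replicate block left 0 calls (1372 at an unadjusted p under 0.05), with Lrg1 at an adjusted p of 0.146, and 635 genes called at 8 wk had the same sign at 4 wk, of 682 called there.

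Genes higher at an unadjusted p under 0.05 numbered 942 as reported and 604 with quantile normalization, and 401 to 1287 when 1 library was left out. Genes lower numbered 421 as reported, 740 with no filter, 686 with median-of-ratios scaling, 728 with quantile normalization, 639 without mitochondrially encoded genes, 259 without NCAC replicates 2, 3 and 5, and 231 to 609 when 1 library was left out. The change from 4 to 8 wk had 0 calls as reported, 73 with sample weights, 97 without CAC replicates 2 and 4, and 0 to 2 when 1 library was left out. Genes of 8 wk with the same sign at 4 wk numbered 1377 to 1620 when 1 library was left out, 1310 without NCAC replicates 2, 3 and 5, and 1058 without CAC replicates 2 and 4. The difference in Lrg1 TPM was 3.27 to 5.15 when 1 library was left out.

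Fold changes reversed without CAC replicates 2 and 4 in Plin4 (-0.17), Fkbp5 (-0.18), Map3k6 (-0.11), Zbtb16 (-0.18), Stat3 (-0.03), Opalin (0.54), Serpinb1a (0.03), Ntf3 (0.00) and Col2a1 (0.14). Without NCAC replicates 2, 3 and 5 they reversed in Zbtb16 (-0.29), Il11ra1 (0.08), Galt (0.00), Fancg (0.01) and Ntf3 (0.13). Sample weights reversed Opalin (0.09) and Ntf3 (0.02), and quantile normalization reversed mt-Nd4l (0.00). When 1 library was left out Opalin ranged from -0.36 to 0.16. The cause was not tested. Over all alternatives 2051 values of named genes kept their direction and side of the threshold, 19 reversed, 14 lost a call and 1 gained one. Libraries left out together were chosen after seeing the data. Depth is unknown, and 5 libraries a group limit the precision.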
